A study of Mus musculus with 8 samples.

Results

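The genes described are 8 markers of the serosal mesothelium, the sheet of cells that covers the outer face of the stomach: Msln, Upk3b, Upk1b, Wt1, Lrrn4, Krt19, Krt7 and Gpm6a. They were taken by name, as markers of that layer, and each was found as 1 locus among 23165 loci with a gene name. All 8 passed the filter on low counts and are among the 14574 loci tested. Whole stomachs of wild type mouse embryos (4 libraries) were set against stomachs with the genotype NKX3.2Cre;R26-YAP5SA (4 libraries), both at E13.5. This second genotype is called YAP5SA. In it, Cre made under the Nkx3-2 gene switches on a mutant YAP from the Rosa26 locus. YAP is a transcriptional coactivator restrained by the Hippo kinases, and the YAP5SA form lacks the serines through which they act. Nkx3-2 is a gene of the gut mesenchyme, and no source used here says whether mesothelial cells carried the active transgene. No library carried Cre without YAP5SA, so the effects of Cre and of YAP cannot be told apart. Strain, sex and the number of embryos per library were not given, so the p-values reflect library-to-library spread, which may be technical.

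Mesothelium is a simple squamous epithelium of mesodermal origin, and it keeps both keratins and mesenchymal proteins. In the embryo it is also a progenitor layer: mesothelial cells lose their contacts, enter the organ wall and give rise to fibroblasts and smooth muscle, a process in which the transcription factor Wt1 takes part. YAP acts on DNA through the TEAD transcription factors.

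Libraries held 6.33 to 6.92 M fragments in wild type and 7.29 to 8.51 M in YAP5SA. Levels are given as fragment counts scaled to library size (CPM) when genotypes are compared, and as FPKM, which divides by transcript length, when genes are compared. The endogenous Yap1 locus lay at 225 to 240 CPM in the wild type and 204 to 233 CPM in YAP5SA. Whether transgene reads count toward that locus is not given, so it does not check the labels. Of all loci tested, 18.9% were called different between genotypes, 9.85% lower and 9.06% higher in YAP5SA, by edgeR's quasi-likelihood test with Benjamini-Hochberg adjustment at 0.05. The same test gives every adjusted p below unless another is named. YAP5SA replicate 1 had the highest summed levels of epithelial and neuronal genes and the lowest of liver genes among the YAP5SA libraries. Only the epithelial and neuronal sums were flagged as far from the rest. Neither the liver sum nor the Msln level of this library was flagged. Results that turn on this library are given with and without it.

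Because YAP reaches its targets through TEAD, the promoters are shown with the core TEAD motif GGAATG in capitals, read on the other strand as CATTCC. RefSeq promoter sequences on GRCm38.p6, the build also called mm10, matched 4 of the 8 genes. Each line gives the 250 bases upstream of a transcription start, 5′ to 3′ on the strand of the gene, and Gpm6a has entries for an upstream start and a downstream start.
Upk3b, chr5:136038246-136038495, plus strand: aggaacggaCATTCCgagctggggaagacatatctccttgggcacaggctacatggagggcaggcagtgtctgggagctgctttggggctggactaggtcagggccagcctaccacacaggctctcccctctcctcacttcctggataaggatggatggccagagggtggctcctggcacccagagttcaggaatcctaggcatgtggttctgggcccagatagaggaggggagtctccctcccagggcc
Lrrn4, chr2:132880863-132881112, minus strand: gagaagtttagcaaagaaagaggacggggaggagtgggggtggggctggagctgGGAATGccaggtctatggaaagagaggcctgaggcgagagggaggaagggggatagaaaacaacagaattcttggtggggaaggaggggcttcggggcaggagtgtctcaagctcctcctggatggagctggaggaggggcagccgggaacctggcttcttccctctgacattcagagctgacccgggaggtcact
Krt7, chr15:101412153-101412402, plus strand: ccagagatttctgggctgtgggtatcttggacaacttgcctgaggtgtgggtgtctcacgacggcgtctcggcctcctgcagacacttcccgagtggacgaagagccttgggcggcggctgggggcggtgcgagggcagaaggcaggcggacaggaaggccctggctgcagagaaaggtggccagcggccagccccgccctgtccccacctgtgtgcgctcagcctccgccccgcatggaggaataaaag
Gpm6a upstream start, chr8:54779184-54779433, plus strand: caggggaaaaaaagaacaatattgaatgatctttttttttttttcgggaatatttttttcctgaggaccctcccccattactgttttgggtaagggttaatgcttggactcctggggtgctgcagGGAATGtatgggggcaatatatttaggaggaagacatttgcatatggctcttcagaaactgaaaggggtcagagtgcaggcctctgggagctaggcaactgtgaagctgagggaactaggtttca
Gpm6a downstream start, chr8:54954478-54954727, plus strand: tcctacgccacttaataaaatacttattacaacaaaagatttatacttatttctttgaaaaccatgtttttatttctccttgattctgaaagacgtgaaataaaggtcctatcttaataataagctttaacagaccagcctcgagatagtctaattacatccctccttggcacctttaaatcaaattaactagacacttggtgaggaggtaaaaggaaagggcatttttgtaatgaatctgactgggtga
The motif stood 241 bases before the start of Upk3b on the other strand. It stood 196 bases before the start of Lrrn4 and 125 bases before the upstream start of Gpm6a, on the given strand in each. The windows of Krt7 and of the downstream Gpm6a start held no copy of these letters. The same letters occur on either strand in 12.6% of the 32851 mouse promoter windows of this length. The core WT1 motif GCGTGGG, read on the other strand as CCCACGC, was in none of the 5 windows and in 4.30% of all windows. These matches are letter matches, and binding was not measured.

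FPKM levels placed the keratins first. In wild type, Krt19 stood at 92.2 ± 8.26 FPKM and Krt7 at 74.7 ± 5.03 (SD, n = 4 here and below). The membrane protein gene Upk3b followed at 49.0 ± 9.999 and the transcription factor gene Wt1 at 36.4 ± 7.93. Lrrn4 stood at 19.3 ± 5.65, Upk1b at 12.3 ± 2.96, Gpm6a at 10.7 ± 3.47 and Msln at 10.7 ± 2.18 FPKM. The 4 wild type values did not overlap between Krt19 and Krt7, between Krt7 and Upk3b, or between Wt1 and Lrrn4. They overlapped between Upk3b and Wt1 and between each pair of neighbours from Lrrn4 down to Msln, so the order there is not resolved. In YAP5SA the FPKM means were 63.9 ± 5.09 for Krt7 and 62.6 ± 7.09 for Krt19. Wt1 at 42.5 ± 2.78 then stood above Upk3b at 36.6 ± 3.49. The YAP5SA values overlapped between Wt1 (38.6 to 45.0) and Upk3b (33.7 to 40.9). They also overlapped between Krt7 (58.4 to 69.6) and Krt19 (52.8 to 69.3), so neither order is resolved. The lowest were Lrrn4 at 14.0 ± 1.93, Upk1b at 10.5 ± 4.16, Gpm6a at 6.55 ± 2.19 and Msln at 6.04 ± 5.23 FPKM.

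Between genotypes, 2 of the 8 genes fell in YAP5SA, Krt19 and Upk3b, and none rose. That is beside 9.85% of all loci called lower. At an unadjusted p under 0.05, edgeR counted 4 lower (Upk3b, Lrrn4, Krt19 and Gpm6a) and 0 higher, where 16.1% and 15.2% of all loci were lower and higher at that threshold. DESeq2 called 0 higher. By sign alone 7 of the 8 fold changes were below 0, Wt1 being the exception, where 51.4% of all loci tested lay below 0. The median log2 fold change of the 8 was -0.52, and that of all loci tested was -0.01. In 1 of the 8, Krt19, the 4 values of one genotype all lay outside those of the other, where 23.3% of all loci separated in that way. These were whole stomachs, so fewer mesothelial cells and less RNA per cell cannot be told apart.

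**Figure D1:**
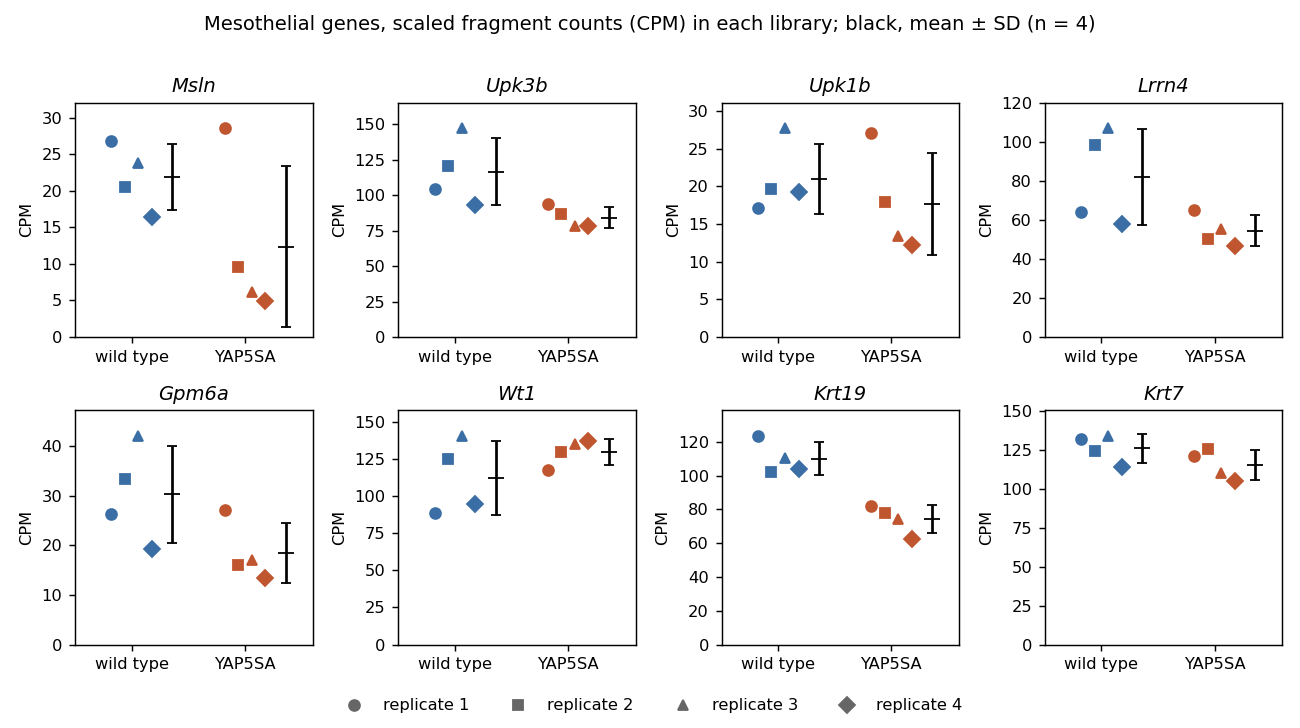
Scaled fragment counts (CPM, vertical axis from 0) of the 8 mesothelial genes in the 4 wild type (blue) and 4 YAP5SA (red) libraries, with symbols for the replicate number and black bars for mean ± SD. Krt19 separates the genotypes completely. YAP5SA replicate 1 lies above the other YAP5SA libraries for Msln, at 28.6 against 4.96 to 9.53 CPM, but was not flagged as far from the rest.

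Msln encodes mesothelin, a surface protein anchored by a lipid tail that serves as a marker of mature mesothelium and of mesothelioma. Its locus lies on chr17:25748612-25754327 (mm10, minus strand). Wild type replicates 1 to 4 gave 26.9, 20.6, 23.8 and 16.4 CPM, and YAP5SA replicates 1 to 4 gave 28.6, 9.53, 6.21 and 4.96 CPM. YAP5SA replicate 1 was the highest of all 8 libraries, while the other YAP5SA libraries were all below every wild type library. The means were 21.9 ± 4.47 and 12.3 ± 11.0 CPM, with a log2 fold change of -0.82 ± 0.46 (SE) that missed the threshold (adjusted p = 0.27). Without YAP5SA replicate 1 the log2 fold change was -1.66 and passed (adjusted p = 0.0019). The result for Msln therefore rests on whether that library is counted. It held 239 Msln fragments, against 69, 46 and 37 in replicates 2, 3 and 4. Its level was 4.15 times their mean of 6.90 ± 2.36 CPM, so its excess is beyond counting error.

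Uroplakins are membrane proteins of the urothelial plaque, and Upk3b and Upk1b are also made by mesothelium. Upk3b (chr5:136038489-136046279, plus strand) gave 104.5, 121, 147.5 and 93.2 CPM in the wild type and 93.6, 86.6, 78.4 and 78.2 CPM in YAP5SA. The ranges touched: YAP5SA replicate 1 lay just above the lowest wild type library, and all other YAP5SA values were below wild type. Upk3b fell from 117 ± 23.6 to 84.2 ± 7.37 CPM, a log2 fold change of -0.47 ± 0.13 (adjusted p = 0.0263). That call was lost in 8 of 18 alternative analyses, with adjusted p between 0.0515 and 0.0852: 3 on FPKM, and those without wild type replicate 2 or 3 or without YAP5SA replicate 2, 3 or 4. Upk1b (chr16:38773126-38800309, minus strand), a tetraspanin, gave 17.2, 19.7, 27.7 and 19.3 CPM in the wild type and 27.1, 18.0, 13.4 and 12.2 CPM in YAP5SA. As for Msln, YAP5SA replicate 1 was the high library of its genotype, here within the wild type range. The log2 fold change of Upk1b was -0.24 ± 0.25 (adjusted p = 0.569). Single libraries moved it from -0.52 without YAP5SA replicate 1 (adjusted p = 0.105) to -0.07 without wild type replicate 3 (adjusted p = 0.899), and it was -0.13 and -0.09 without YAP5SA replicates 3 and 4.

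Lrrn4, a leucine-rich repeat membrane protein gene used as a mesothelial marker, lies in a locus on chr2:132846604-132880950. It gave 64.3, 98.8, 107 and 58.0 CPM in the wild type and 65.2, 50.4, 55.5 and 47.0 CPM in YAP5SA. Wild type split into a pair of high and a pair of low libraries, and the low pair overlapped YAP5SA. The log2 fold change was -0.59 ± 0.19, just short of the threshold (adjusted p = 0.0547). It passed with DESeq2 (adjusted p = 0.0203) and without wild type replicate 1 (0.0391), wild type replicate 4 (0.0192) or YAP5SA replicate 1 (0.0479). The assembled span of Lrrn4 is shared with Crls1 on the opposite strand, a gene of cardiolipin synthesis. The use of strand in counting is not given, so the split of fragments between them is uncertain. Crls1 stood at 68.8 ± 10.3 CPM in the wild type and 60.7 ± 5.23 CPM in YAP5SA, with a log2 fold change of -0.18 (adjusted p = 0.278).

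Gpm6a encodes a proteolipid of the cell surface that is best known from neurons and is also a mesothelial marker. Its locus spans chr8:54779434-55060878 on the plus strand. In the annotation that span overlaps Wdr17, a protein-coding gene on the opposite strand. The use of strand in counting is not given, so the Gpm6a count may include Wdr17 fragments. The levels of Gpm6a were 26.2, 33.4, 42.1 and 19.3 CPM in the wild type and 27.2, 16.0, 17.1 and 13.4 CPM in YAP5SA. The 3 lowest YAP5SA libraries lay below every wild type library, and replicate 1 lay inside the wild type range. The log2 fold change was -0.71 ± 0.26 and did not pass (adjusted p = 0.0882). It passed without YAP5SA replicate 1 (-0.95, adjusted p = 0.0228) and without wild type replicate 4 (adjusted p = 0.0384).

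Wt1, the zinc-finger transcription factor of mesothelium, epicardium, kidney and gonad, was the 1 gene of the 8 with a fold change above 0. It gave 88.8, 125, 141 and 94.4 CPM in the wild type and 118, 129, 135 and 137 CPM in YAP5SA. The YAP5SA values were closely spaced and all lay within the wild type range. The means were 112 ± 24.7 and 130 ± 8.80 CPM, with a log2 fold change of 0.21 ± 0.13 (adjusted p = 0.317). It stayed above 0 in all 18 alternatives, from 0.12 to 0.34, with adjusted p from 0.063 to 0.555. The assembled locus, chr2:105076538-105173614, is shared with AI314831, which the RefSeq table lists as an older name of the antisense gene Wt1os. AI314831 stood at 86.7 ± 22.9 and 88.6 ± 8.70 CPM (log2 fold change 0.03, adjusted p = 0.932). Reads from Wt1 and its antisense partner cannot be told apart without strand, so the level of Wt1 is uncertain by that share.

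Krt19 and Krt7 encode keratins of simple epithelia, made by mesothelium and by the lining of the gut. Krt19 (chr11:100140811-100145919, minus strand) gave 124, 102, 110.4 and 104 CPM in the wild type and 81.9, 77.9, 74.3 and 62.6 CPM in YAP5SA. Every YAP5SA library was below every wild type library. Krt19 fell from 110.1 ± 9.73 to 74.2 ± 8.31 CPM, a log2 fold change of -0.57 ± 0.09 (adjusted p = 0.0017). The call held in all 18 alternatives, with log2 fold changes from -0.61 to -0.48. Krt7 (chr15:101410994-101427929, plus strand) gave 132, 124, 134 and 114 CPM in the wild type and 121, 126, 110.0 and 105 CPM in YAP5SA. The ranges overlapped, and the log2 fold change was -0.13 ± 0.07 (adjusted p = 0.26). Krt7 passed in 1 alternative, limma on FPKM with a mean of at least 1 (adjusted p = 0.0399). In the annotation the span of Krt7 overlaps the antisense gene Gm671, so the same uncertainty about strand holds.

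**Figure D2:**
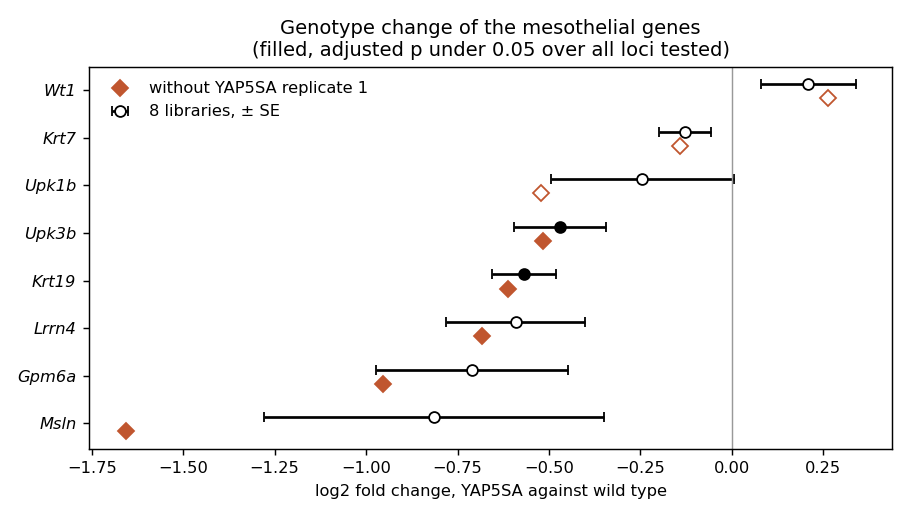
Log2 fold change of each mesothelial gene, YAP5SA against wild type (horizontal axis), with all 8 libraries (black, ± SE) and without YAP5SA replicate 1 (red diamonds). Filled symbols passed an adjusted p of 0.05, which 2 genes did with all libraries and 5 without that library.

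The spread within a genotype was not even over the genes. YAP5SA replicate 1 was the highest YAP5SA library for 6 genes (Msln, Upk3b, Upk1b, Lrrn4, Krt19 and Gpm6a) and the lowest for Wt1. YAP5SA replicate 4 was the lowest for 7 genes and the highest for Wt1. Relative to the mean of the other YAP5SA libraries, replicate 1 was 1.87 times as high for Upk1b, 1.75 for Gpm6a, 1.28 for Lrrn4, 1.15 for Upk3b, 1.14 for Krt19, 1.07 for Krt7 and 0.878 for Wt1. Wild type replicate 3 was the highest of its genotype for 6 genes, and wild type replicate 4 was the lowest for 5. Without YAP5SA replicate 1, Msln, Upk3b, Lrrn4, Krt19 and Gpm6a were called lower, 5 of 8, where 10.4% of all loci were called lower. Without wild type replicate 4 the same genes except Msln were called, 4 of 8, beside 8.24% of all loci. Without wild type replicate 1, Lrrn4 joined Upk3b and Krt19 as called, 3 of 8 beside 7.49%. Krt19 alone was called without wild type replicate 2 or 3, where 7.13% and 7.6% of all loci were called lower. Krt19 was also the single call without YAP5SA replicate 2, 3 or 4, where the shares of all loci were 6.65%, 7.01% and 7.35%. With all libraries, DESeq2 called 3 of the 8 (Upk3b, Lrrn4 and Krt19) beside 10.2% of all loci. The replicate block called 2 beside 10.9%, and limma on log2(FPKM + 1) or log2(FPKM + 0.1) called Krt19 alone, beside 6.92% and 6.74%.

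Whether the genes differed from each other in their genotype change was tested over the 28 pairs, on the log2 ratio of their CPM. An exact two-sided permutation test of 4 against 4 libraries cannot go below p = 0.0286. That value was reached by 5 pairs: Wt1 against Krt19, Wt1 against Lrrn4, Upk3b against Wt1, Krt19 against Krt7 and Upk3b against Krt7. Relative to Krt19, Wt1 was higher in YAP5SA by 0.80 on the log2 scale, and relative to Lrrn4 by 0.78. None of the 28 passed after Benjamini-Hochberg adjustment (smallest adjusted p = 0.16). With that floor, any pair could pass only if most of the 28 reached it. The adjusted result therefore cannot decide whether the genes changed by different amounts.

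Other markers of mesothelium and epicardium, a list of 22 genes, did not move in one direction. Of these, 19 were tested, on 20 loci because Tcf21 has a pair, and 4 genes rose, 3 fell and 13 loci were not called. The median log2 fold change of the list was 0.17. The summed level was 1151 to 1618 CPM in the wild type and 1437 to 1490 CPM in YAP5SA, so the YAP5SA libraries all lay within the wild type range. Muc16, the mucin that binds mesothelin, had no locus of its own in the table. Calb2, which encodes the mesothelial protein calretinin, had 4 fragments over the wild type libraries and 5 over YAP5SA and was not tested. Slpi, a secreted protease inhibitor, had 17 and 4 and was not tested either.

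The 4 that rose were matrix, complement and surface protein genes. Efemp1, which encodes the matrix protein fibulin-3, rose from 15.6 ± 4.47 to 72.8 ± 14.7 CPM, a log2 fold change of 2.22 ± 0.21 (adjusted p = 0.0001). The complement gene C3 rose from 3.62 ± 1.79 to 17.8 ± 3.37 CPM (2.29 ± 0.34, adjusted p = 0.0012). Pdpn, which encodes the surface glycoprotein podoplanin, rose from 29.3 ± 7.72 to 55.4 ± 8.45 CPM (0.92 ± 0.17, adjusted p = 0.0041). In these 3 the genotypes did not overlap. The surface peptidase gene Dpp4 rose from 57.1 ± 6.18 to 95.7 ± 28.3 CPM (0.75 ± 0.19, adjusted p = 0.0185), a call lost without wild type replicate 2 or 4 (adjusted p = 0.053 in each).

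The 3 that fell included Aldh1a2, the retinoic acid synthesis enzyme of embryonic mesothelium. It fell from 133 ± 14.7 to 90.8 ± 9.72 CPM, a log2 fold change of -0.56 ± 0.09 (adjusted p = 0.0024), close in size to Krt19. Anxa8, an annexin gene, fell from 26.3 ± 6.08 to 7.13 ± 3.35 CPM (-1.88 ± 0.33, adjusted p = 0.0032). Rspo1, which encodes a secreted enhancer of Wnt signalling, fell from 51.4 ± 7.35 to 36.2 ± 7.54 CPM (-0.51 ± 0.15, adjusted p = 0.0345). The Rspo1 call was lost in 7 of 18 alternatives, among them that without YAP5SA replicate 1 (adjusted p = 0.0813). The most abundant gene of the list, Podxl, which encodes a sialomucin of mesothelium and vessels, stood at 324 ± 64.0 and 306 ± 12.6 CPM (-0.08 ± 0.12, adjusted p = 0.698). Without wild type replicate 3, the list counted 8 rises and 2 falls. Several of these genes are also expressed in mesenchyme or vessels, and the cells that carried the change were not resolved.

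**Figure D3:**
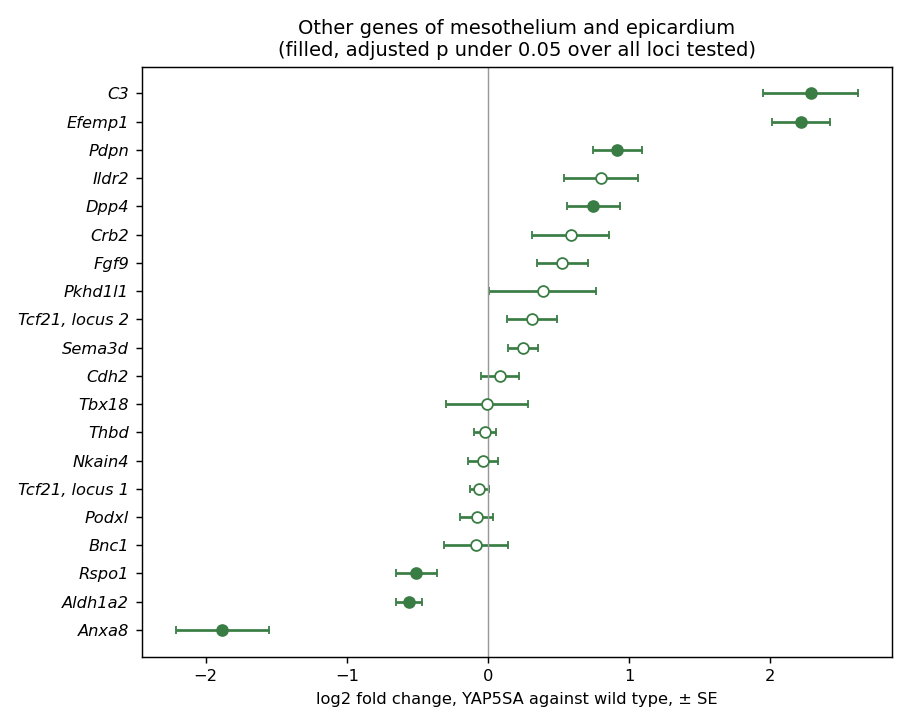
Log2 fold change ± SE, YAP5SA against wild type (horizontal axis), for the 20 tested loci of other mesothelium and epicardium genes, with filled symbols for an adjusted p under 0.05. Changes run in both directions, with 4 filled symbols above 0 and 3 below.

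The families of the 8 genes were read for the same change. Of the uroplakins, Upk2 fell with Upk3b, from 4.66 ± 2.21 to 1.03 ± 0.67 CPM, a log2 fold change of -2.14 ± 0.49 (adjusted p = 0.0123). Upk1a, which pairs with Upk2 in urothelium, was at 3.60 ± 1.72 and 2.25 ± 0.88 CPM and did not pass (adjusted p = 0.327), and Upk3a, with 39 and 16 fragments in all, was not tested. Gpm6b, the close relative of Gpm6a, stood at 77.3 ± 4.50 and 79.2 ± 3.04 CPM (0.04 ± 0.06, adjusted p = 0.729). Of the relatives of Lrrn4, none passed: the log2 fold changes were 0.18 for Lrrn1, 0.42 for Lrrn2, -0.34 for Lrrn3 and 0.26 for Lrrn4cl. Lrrn3 passed with the replicate number as a block (adjusted p = 0.022). Mslnl, the mesothelin-like gene, had 5 and 4 fragments in all and was not tested.

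Of the simple keratins, Krt18, the type I partner of Krt8, fell with Krt19, from 108 ± 9.94 to 88.2 ± 7.80 CPM, a log2 fold change of -0.29 ± 0.08 (adjusted p = 0.0273). That call was lost in 5 of 18 alternatives. Krt23 was at 5.62 ± 3.28 and 2.95 ± 2.33 CPM (-0.91 ± 0.54, adjusted p = 0.289), and passed with the replicate block (adjusted p = 0.04) and without YAP5SA replicate 1 (-1.62, adjusted p = 0.0476). Krt20 was at 6.06 ± 1.61 and 6.33 ± 1.97 CPM (0.07 ± 0.29, adjusted p = 0.911). Krt8 lay in a locus joined with Krt73 and was not read as a single gene. That joined locus was lower in YAP5SA, at 80.1 ± 7.45 and 52.4 ± 6.28 CPM (log2 fold change -0.61 ± 0.09, adjusted p = 0.0015).

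Both keratins are also products of gut epithelium, and markers of that layer fell in YAP5SA, as Krt19 did. Of 17 general epithelial genes tested, 16 fell in YAP5SA, with a median log2 fold change of -0.96. Their summed level was 1281 to 1628 CPM in the wild type and 685 to 1006 CPM in YAP5SA. Epcam, the defining adhesion protein, fell by 0.69 ± 0.09 on the log2 scale (adjusted p = 0.00051). Squamous and basal genes, of which Krt5, Krt15 and Trp63 fell among 5 tested, summed to 139 to 286 CPM in the wild type and 35.4 to 108 CPM in YAP5SA. Of 18 alternatives, 4 lost the call of Krt15 and 1 that of Krt5, and the call of Trp63 held in all. Krt14 and Krt17 of that list share a joined locus, which was higher in YAP5SA, at 26.6 ± 2.47 and 51.6 ± 11.1 CPM (log2 fold change 0.96 ± 0.15, adjusted p = 0.0016). Krt19 and Krt7 were therefore each also expressed relative to the mean of the 17 epithelial genes in its own library. Krt7 stood 0.85 ± 0.20 above that mean on the log2 scale in wild type and 1.59 ± 0.27 above it in YAP5SA, and the genotypes did not overlap. The difference was 0.74 (exact two-sided permutation test, p = 0.0286, the smallest possible, and 0.0571 after adjustment over both keratins). Krt19 stood 0.65 ± 0.11 above it in wild type and 0.95 ± 0.24 in YAP5SA, a difference of 0.30 (exact permutation p = 0.0857, also 0.0857 after adjustment). Between same-numbered libraries the Krt19 difference was above 0 in 4 of 4, from 0.12 to 0.54. The Krt7 difference ran from 0.55 to 0.94. For Krt7 every pairing of libraries would give differences above 0, because the genotypes did not overlap. How much of the fall of Krt19 came from epithelium was not tested.

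Gpm6a is likewise made by neurons, and enteric neuron genes were lower in YAP5SA. Of 15 loci tested, 13 fell, with a median log2 fold change of -1.09, and the summed level went from 718 to 864 CPM in wild type to 373 to 479 CPM in YAP5SA. The neuronal tubulin gene Tubb3 fell by 1.05 ± 0.07 on the log2 scale (adjusted p = 2.1e-05). Relative to the mean of the 15 neuronal loci in the same library, Gpm6a stood at -0.48 ± 0.42 in wild type and -0.15 ± 0.23 in YAP5SA. The difference of 0.33 did not pass (exact two-sided permutation test, p = 0.2), and it was above 0 in 3 of 4 same-numbered libraries. Glial genes, with 7 of 8 loci lower, had a median of -1.01. The part of neurons in the value of Gpm6a was not tested.

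**Figure D4:**
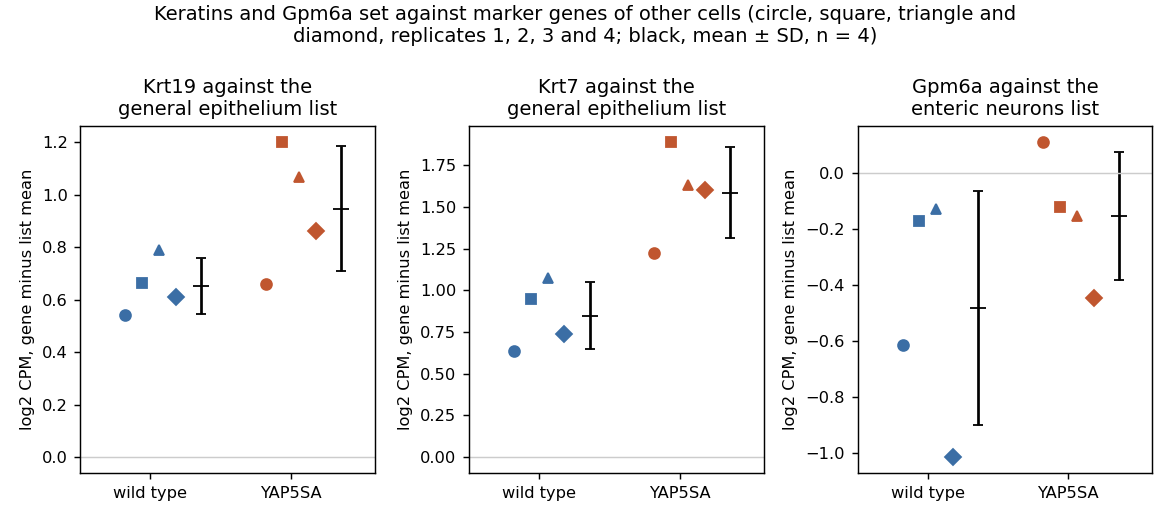
Log2 CPM of Krt19, Krt7 and Gpm6a minus the mean log2 CPM of a marker list in the same library (vertical axis), for wild type (blue) and YAP5SA (red), with black bars for mean ± SD of 4 libraries. Krt7 separates the genotypes, with wild type at most 1.07 and YAP5SA at least 1.22, while the values of Krt19 and Gpm6a overlap.

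Wt1 is also a gene of the neighbouring kidney and gonad, and mesothelium is carried by every organ of the abdomen. Of 4 kidney, gonad and adrenal genes tested, Emx2, a homeobox gene of the urogenital ridge, rose from 4.67 ± 1.85 to 11.3 ± 2.94 CPM, a log2 fold change of 1.27 ± 0.29 (adjusted p = 0.012). Lhx9, a homeobox gene of gonad and mesothelium, gave 13.2, 31.2, 36.9 and 18.9 CPM in the wild type and 22.8, 53.9, 68.9 and 86.4 CPM in YAP5SA. YAP5SA replicate 1 was within the wild type range and the other YAP5SA libraries were above it, and the test missed the threshold (adjusted p = 0.0593). Lhx9 passed with the replicate block (adjusted p = 0.022) and without YAP5SA replicate 1 (0.0073). Of 7 spleen primordium loci tested, 1 was called, Nkx2-5, which fell by 0.63 ± 0.18 on the log2 scale (adjusted p = 0.0362), a call lost in 8 of 18 alternatives. None of 6 pancreas genes was called by edgeR, with 0 at an unadjusted p under 0.05, or by DESeq2.

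Some liver genes also rose in YAP5SA. Of 7 tested, 5 rose (Alb, Afp, Apoa2, Ahsg and Fgb), and the median log2 fold change of the 7 was 2.30. The others were below 0 and were not called: Apoa1 was at 25.5 ± 4.05 and 17.1 ± 5.70 CPM (-0.58 ± 0.22, adjusted p = 0.102) and Ttr at 36.4 ± 13.8 and 28.2 ± 3.02 CPM (-0.37 ± 0.22, adjusted p = 0.285). The summed level of the 7 was 57.3 to 132 CPM in wild type. In YAP5SA it was 91.5 CPM in replicate 1, which had the high Msln value, and 281, 187 and 285 CPM in replicates 2, 3 and 4. In wild type replicates 1 to 4 the sum was 132, 95.6, 102 and 57.3 CPM, which is the same order of libraries as for Msln. The list also held Serpina1a, with 29 fragments over wild type and 33 over YAP5SA, which was not tested. Ahsg, with 21 and 213 fragments, passed the filter on low counts through YAP5SA. With no filter 4 of 8 rose, with a median of 2.14, beside 7.51% of all loci called higher. The count of liver genes called was 3 to 5 when single libraries were left out. It fell to 2 with the replicate block, where Alb, Afp and Fgb were lost (adjusted p = 0.11, 0.15 and 0.14), and to 1 with limma-voom. With limma on FPKM it was 1 or 2. Of the 18 alternatives, 4 lost the call of Alb, 5 that of Afp, 11 that of Apoa2 and 12 that of Fgb. The call of Ahsg held in all 18. The CPM ranges of the genotypes overlapped for Apoa2 and Fgb and not for Alb, Afp and Ahsg. The part of these other cells in the values of Msln, Wt1 and Gpm6a was not tested.

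**Figure D5:**
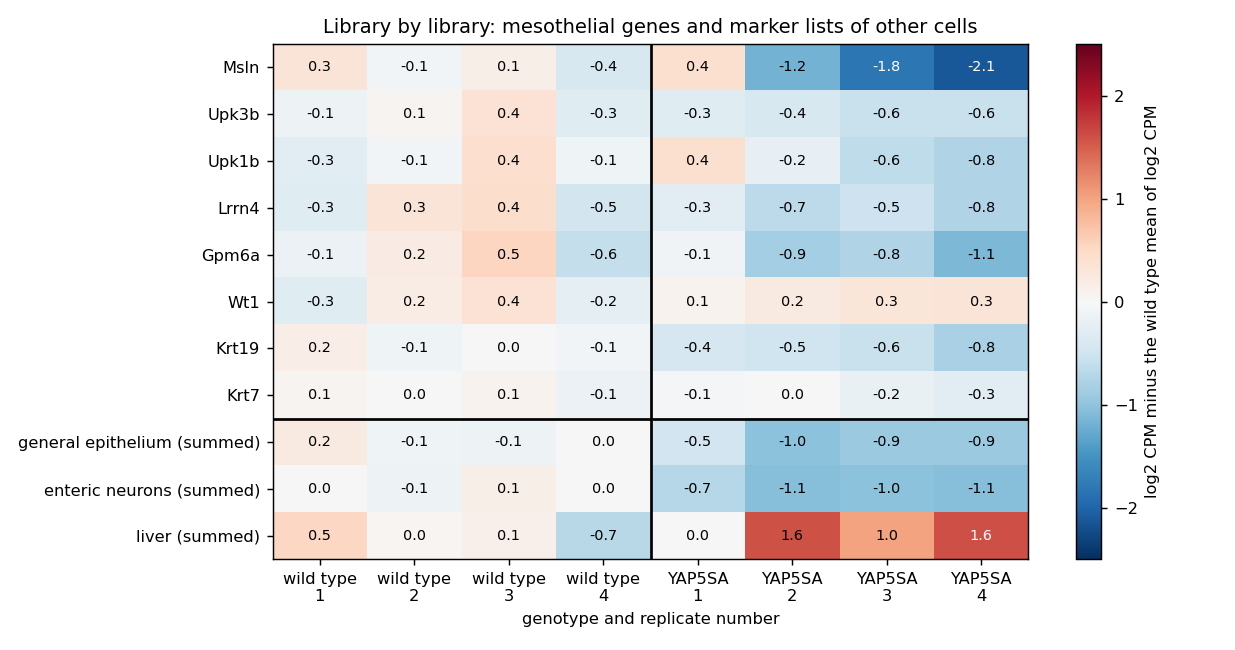
Log2 CPM of the 8 mesothelial genes and log2 of the summed CPM of 3 marker lists (rows) in each of the 8 libraries (columns), each minus the wild type mean of its row, with red above and blue below it. YAP5SA replicate 1 is nearer to wild type than the other YAP5SA libraries for Msln, Upk3b, Lrrn4, Gpm6a, Wt1, Krt19 and all 3 lists. For Upk1b and Krt7, replicate 2 is nearer.

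Genes of the passage from mesothelium to mesenchyme were read as a last list. Of 7 tested, the transcription factor genes Snai1 and Zeb1 rose and their relative Snai2 fell. Snai1 went from 22.0 ± 4.06 to 40.9 ± 1.21 CPM, a log2 fold change of 0.89 ± 0.12 (adjusted p = 0.00078) and Zeb1 from 134 ± 11.6 to 163 ± 6.04 CPM (0.28 ± 0.06, adjusted p = 0.0113). Snai2 went from 89.8 ± 8.57 to 71.1 ± 5.96 CPM (-0.34 ± 0.08, adjusted p = 0.0165), a call lost without replicate 2 of either genotype (adjusted p = 0.062 without wild type, 0.059 without YAP5SA). The most abundant gene of the list, Vim, which encodes vimentin, was at 207 ± 3.70 and 194 ± 13.2 CPM (adjusted p = 0.285). These genes are expressed throughout the stomach mesenchyme, so the values do not belong to mesothelial cells alone.

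Within genotypes, the 8 genes varied together to different degrees. Each library's deviation from its genotype mean was averaged over the genes after scaling, and each gene was set against that average, of which it is itself a part. Pearson's r over the 8 libraries was 0.96 for Gpm6a, 0.92 for Upk3b, 0.86 for Upk1b, 0.85 for Lrrn4, 0.81 for Krt7 and 0.76 for Msln. It was lower for Krt19, at 0.55, and for Wt1, at 0.39. Outside the 8 genes, 12447 loci of at least 5 CPM were compared with the average in the same way, and 83 had r of at least 0.9. The closest were Pappa (r = 0.99, Spearman's rho = 0.98), 3830406C13Rik (0.99, 0.95), Tnn (0.99, 0.93), Scube1 (0.97, 0.90) and Csf1 (0.97, 0.95). These are the highest of many values over 8 libraries that differ in depth and may differ in dissection, and they are given as a description. Among them, Tnn, which encodes a tenascin of the matrix, fell (log2 fold change -1.69 ± 0.26, adjusted p = 0.0016) and Csf1, the macrophage growth factor gene, rose (1.16 ± 0.08, adjusted p = 1.9e-05). These genes, close in pattern within genotypes, had changes of opposite sign between them.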

How the data were processed

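RNA profiles (Illumina TruSeq libraries) came from whole E13.5 stomachs, 4 wild type and 4 YAP5SA libraries. The submitters' processing notes name the build mm10 and the tools Cuffdiff, Cufflinks 2.2.1 and TopHat2 2.0.9, with no settings. A deposited table of 26747 loci gives, per the file headers, raw fragments per library, an estimated count, 10.6% to 11.0% of them not whole (tolerance 1e-06), and FPKM as scaled by the authors. Libraries are numbered by their order in that table, which names them only within a genotype. Loci without a gene name (3582, with 1.85% to 1.97% of fragments) were left out.

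Counts were rounded and tested with edgeR 4.0.16 in R 4.3.3 (quasi-likelihood, robust, TMM factors), with genotype as the term and adjustment over 14574 loci. The filter was filterByExpr, which asked for 10 fragments, scaled to library size, in at least 4 libraries and 15 in total. A log2 fold change above 0 is higher in YAP5SA. Ratios used a pseudocount of 0.5 CPM and exact permutation over 70 assignments. Alternatives were RLE and upper-quartile factors, DESeq2 1.42.0, limma-voom and limma-trend on log2 FPKM (limma 3.58.1, pseudocounts of 1 and 0.1), no filter, unnamed loci, a replicate block and each library left out. Same-numbered libraries of the genotypes deviated together over loci (correlations of 0.233, 0.221, 0.175 and 0.313), which supports the block from the data, since the labels state no shared litter or batch. The fitting step was tested on simulated data.

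The genes and lists were chosen with earlier results of these data known. Besides the 8 genes, the text names at most 4 genes per list (those of smallest p), its most abundant member, those a count needs, family members, Epcam and Tubb3 as defining markers and the 5 loci closest in pattern. Apoa1, Ttr, Serpina1a, the joined locus of Krt14 and Krt17 and that of Krt8 and Krt73 were added after their values were seen. Results for 1 gene of the epithelial list are not given on their own. Annotation is GENCODE M21 and RefSeq on the same build. The lists covered other mesothelium and epicardium, general and squamous epithelium, neurons, glia, gene families of the 8, kidney and gonad, spleen, liver, pancreas and mesenchymal transition.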

Additional observations from a re-analysis of the deposited data

Results flagged for a closer look

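Among 30 sets of 4 libraries checked for a value far from the rest, 2 held one, where chance alone would flag about 1 in 20. YAP5SA replicate 1 had the highest summed level of general epithelium genes in its genotype, at 1006 CPM against 685 to 733 CPM in the others. It also had the highest summed level of enteric neuron genes, at 479 CPM against 373 to 387 CPM. The same library held the highest Msln value of all 8 libraries, at 28.6 CPM, but the YAP5SA set of Msln values was not flagged. What sets that library apart was not tested.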

How the results depend on the processing

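The count of mesothelial genes called was 2. It was also 2 with RLE factors, beside 9.48% of all loci called lower, upper-quartile factors (10.2%), limma-voom (10%) and no filter (6.82%). The count was again 2 with unnamed loci included (8.47%) and with limma on FPKM with a mean of at least 1 (8.72%), although the last called Krt19 and Krt7. It was 3 with DESeq2 and 1 with limma on log2(FPKM + 1) or log2(FPKM + 0.1), and it ran from 1 to 5 when each library was left out. With the replicate block 2 of the 8 were called, Upk3b and Krt19, and 3035 loci in all against 2757. The block changed no call of the 8 genes, and beside the calls given for Lhx9, Lrrn3, Krt23, Alb, Afp and Fgb it changed no other call among the genes refitted under all 18 alternatives, nor those of AI314831 and Crls1. None of the 8 genes changed sign in 18 alternatives. Among genes that were not called, the log2 fold change changed sign with single libraries left out: Podxl ran from -0.16 to 0.053, Krt20 from -0.12 to 0.24 and 3830406C13Rik from -0.081 to 0.094. The 3830406C13Rik log2 fold change was -0.0019 with upper-quartile factors. The cause was not tested. Msln, with 37 to 239 fragments per library, has the fewest fragments per exonic base of the 8.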
